A study of Homo sapiens with 2 samples.

Results

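The ABC transporter genes are described here by their open chromatin in CAMA-1. The members were all GENCODE protein-coding genes on the autosomes whose symbol is ABCA, ABCB, ABCC, ABCD, ABCE, ABCF or ABCG followed by a digit, on genome build hg38. This gave 44 of 19111 autosomal protein-coding genes: 12 ABCA, 8 ABCB, 11 ABCC, 3 ABCD, 1 ABCE, 4 ABCF and 5 ABCG genes. They include ABCF2-H2BK1, a read-through gene that shares its start with ABCF2.

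Accessibility was measured by ATAC-seq, which uses the transposase Tn5 to cut and tag DNA where nucleosomes leave it exposed. CAMA-1 is a human breast cancer cell line of epithelial, luminal type, grown here as adherent cultures in DMEM with fetal bovine serum, and the labels name no treatment. The 2 samples were biological replicates of 50000 cells each and formed the only condition, so no groups could be compared and no test between conditions exists. All values come from 1 cell line, and a peak cannot tell a site open in some cells from a site weakly open in each.

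Peaks were listed separately for each replicate, with 245736 peaks in replicate 1 and 259745 in replicate 2. The strength of a peak is given as its fold enrichment, the height of stacked reads over the background of the peak caller. That background was 3.35 reads in replicate 1 and 3.52 in replicate 2, and the median peak of each list was 35 reads high. The lists hold only peaks that passed the caller's threshold, so a gene without a peak may still have been weakly accessible. Among marker genes, all 7 of luminal breast epithelium had a peak within 1 kb of a transcription start site (TSS) in both replicates, and so did 3 of 3 basal, 1 of 3 blood and 3 of 4 endothelial and fibroblast markers. As 80.5% of all autosomal protein-coding genes had such a peak, these counts say little about cell type. The luminal transcription factor FOXA1 reached a fold enrichment of 84.9 and 90.2, and the basal factor TP63 reached 5.29 and 6.41.

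ABC proteins bind and hydrolyse ATP, and most of them use that energy to move a substrate across a membrane. The family exports sterols, phospholipids, bile salts, conjugated metabolites and drugs, and regulates potassium channels. Other members move lipids and metabolites across the membranes of mitochondria, peroxisomes and lysosomes. The ABCE and ABCF proteins have no membrane domain and act on the ribosome. In breast cancer the family is best known for drug efflux, since P-glycoprotein (ABCB1), MRP1 (ABCC1), breast cancer resistance protein (ABCG2) and MRP8 (ABCC11) can expel chemotherapy agents from the cell.

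A TSS peak, meaning a peak that overlapped the 1 kb on either side of any annotated TSS, was called in both replicates for 34 of the 44 ABC genes. This is 77.3% (95% Wilson interval 63.0 to 87.2%), against 80.5% of all autosomal protein-coding genes. The background share lay within the interval of the ABC genes, which have a median of 8 annotated TSSs against 5 for all genes. The share differed by gene length: under 20 kb it was 7 of 7 against 71.5% of all genes, from 20 to 60 kb 8 of 9 (88.9%) against 85.3%, from 60 to 100 kb 11 of 16 (68.8%) against 88.4%, and over 100 kb 8 of 12 (66.7%) against 88.2%. These are small counts, and no test was made of them. ABCB4 and ABCB11 had a TSS peak in replicate 2 only, and ABCA6, ABCA8, ABCA9, ABCA10, ABCA13, ABCB1, ABCC9 and ABCG5 had none in either replicate. Over the 34 genes the strongest TSS peak had a median fold enrichment of 56.0, against 53.2 over all genes with such a peak, which placed the ABC median at percentile 52.8. Within a replicate the ABC median was 60.7 in replicate 1 and 51.3 in replicate 2, and the median of all genes was 52.2 and 54.2.

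**Figure D1:**
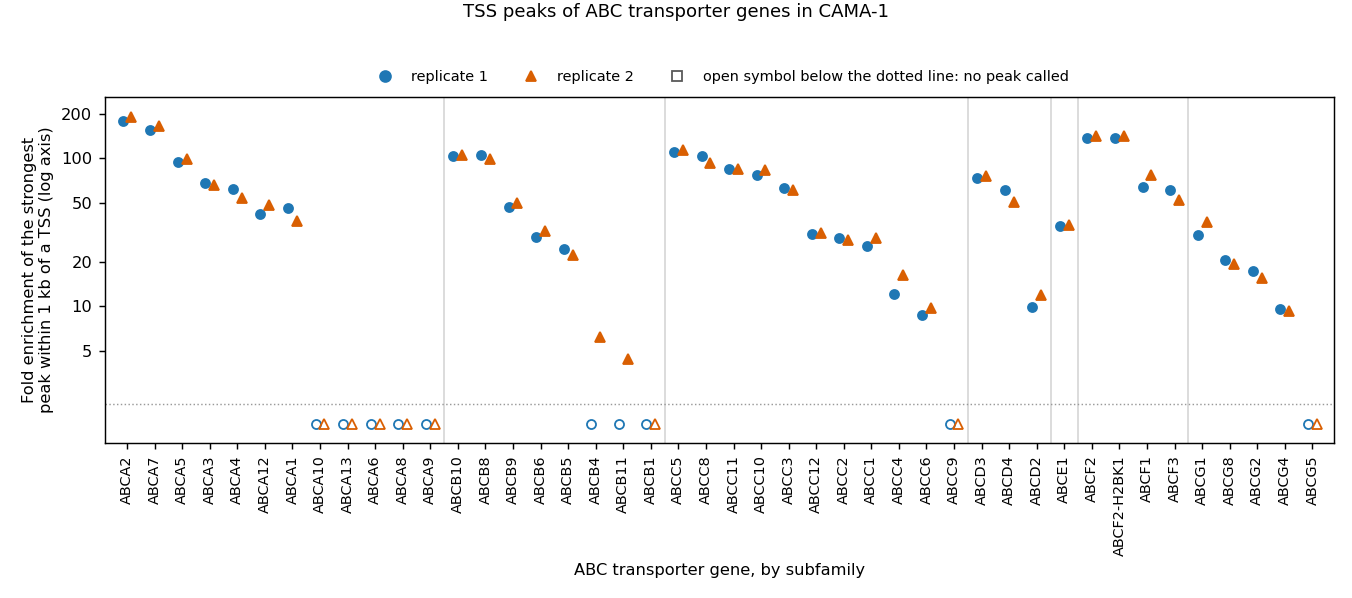
Fold enrichment (log axis) of the strongest peak within 1 kb of a TSS for each of the 44 ABC genes, ordered within subfamilies, with circles for replicate 1 and triangles for replicate 2. Open symbols below the dotted line mark replicates without a called peak, and the called values run from 4.42 for ABCB11 in replicate 2 to 190.2 for ABCA2 in replicate 2.

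The spread between replicates was small beside the spread between genes. The ratio of replicate 2 to replicate 1 ran from 0.826 to 1.34 over the 34 genes, so no ABC gene differed by more than 1.5-fold, and 210 of the 15379 genes with TSS peaks did. The strongest TSS peak was 185.3 ± 6.91 (SD, n = 2) for ABCA2 and 9.24 ± 0.697 (SD, n = 2) for ABCC6, the highest and lowest of the called ABC genes.

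The drug efflux genes had very different starts. ABCC11 had a strong TSS peak, ABCC1 and ABCG2 had weak ones, and ABCB1 had none.

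ABCC11 (ENSG00000121270.16) lies on the reverse strand of chromosome 16 from 48165773 to 48247568. It encodes MRP8, an efflux pump of apocrine glands that carries cyclic nucleotides and steroid conjugates. Its strongest TSS peak covered the most 5′ TSS and had a fold enrichment of 84.7 in replicate 1 and 84.2 in replicate 2, or 84.5 ± 0.300 (SD, n = 2). The heights were 367 reads (95% Poisson interval 330.4 to 406.5) and 380 reads (342.7 to 420.2). The value stood at percentile 75.2 of all genes with a TSS peak, and at percentile 64.0 among those of chromosome 16.

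ABCC1 (ENSG00000103222.20) lies on the forward strand of chromosome 16 from 15949138 to 16143257 and encodes MRP1, which exports glutathione conjugates and drugs. The strongest TSS peak was at its 5′ end, with a fold enrichment of 25.8 and 29.0, or 27.4 ± 2.26 (SD, n = 2). The heights were 111 reads (91.3 to 133.7) and 130 reads (108.6 to 154.4), so the intervals overlapped. This was percentile 23.8 of all genes and percentile 16.9 on chromosome 16. Fold enrichment was set against a single background for the whole genome, and the part of DNA copy number in these ranks was not tested.

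ABCG2 (ENSG00000118777.12) lies on the reverse strand of chromosome 4 from 88090150 to 88231628. Its product exports drugs, urate and sulfated steroids and is named for resistance in breast cancer cells. It had a single TSS peak, of 17.3-fold in replicate 1 and 15.5-fold in replicate 2, or 16.4 ± 1.26 (SD, n = 2), at percentile 14.0 of all genes. That peak did not lie at the most 5′ TSS, which had none within 1 kb, but at a group of start sites from 72.3 to 73.0 kb further inside the gene.

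ABCB1 (ENSG00000085563.15) lies on the reverse strand of chromosome 7 from 87503017 to 87713323 and encodes P-glycoprotein. None of its 10 annotated TSSs had a peak within 1 kb in either replicate. The nearest peak lay 1053 bp from a TSS in replicate 1 and 1049 bp in replicate 2, just outside the limit, on the upstream side of the most 5′ TSS. It was weak, with a fold enrichment of 12.0 and 11.5.

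Promoter sequences of 3 of these genes are shown because their starts differed so much in strength. They are RefSeq sequences of GRCh38.p14, 5′ to 3′ on the strand of the gene, from 250 bases before to 30 after the annotated start, and capitals mark the motif matches named after them. For ABCB1 the window is chr7:87600855-87601134 on the reverse strand, without a peak. For ABCG2 it is chr4:88158610-88158889 on the reverse strand, under the peak of 17.3- and 15.5-fold, and for ABCC11 it is chr16:48247510-48247789 on the reverse strand, under the peak of 84.7- and 84.2-fold.
ABCB1 promoter: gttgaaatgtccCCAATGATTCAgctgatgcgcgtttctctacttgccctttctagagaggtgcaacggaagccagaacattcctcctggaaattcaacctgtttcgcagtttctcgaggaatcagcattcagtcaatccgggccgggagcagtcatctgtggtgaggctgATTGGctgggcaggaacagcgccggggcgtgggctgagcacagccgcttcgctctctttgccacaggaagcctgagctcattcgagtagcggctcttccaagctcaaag
ABCG2 promoter: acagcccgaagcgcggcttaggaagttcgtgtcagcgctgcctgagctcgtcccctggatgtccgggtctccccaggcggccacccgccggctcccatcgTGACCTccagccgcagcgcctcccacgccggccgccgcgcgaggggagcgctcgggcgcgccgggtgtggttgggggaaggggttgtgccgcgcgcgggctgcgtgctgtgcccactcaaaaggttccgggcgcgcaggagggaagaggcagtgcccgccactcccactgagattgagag
ABCC11 promoter: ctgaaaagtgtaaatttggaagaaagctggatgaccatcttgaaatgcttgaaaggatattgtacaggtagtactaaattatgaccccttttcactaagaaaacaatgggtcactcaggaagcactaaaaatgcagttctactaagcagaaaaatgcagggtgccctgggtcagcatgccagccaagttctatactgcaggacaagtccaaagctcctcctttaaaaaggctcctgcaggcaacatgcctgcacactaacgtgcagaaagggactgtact
The ABCB1 window held 14 CpG dinucleotides, 2 CCAAT boxes and 1 AP-1 match (TGANTCA), and the first CCAAT box and the AP-1 match share a base. The AP-1 pattern allows any base at its middle position, here T. Its matches, here and in the counts below, are therefore not all strict AP-1 sites. The ABCG2 window held 33 CpG dinucleotides and 1 match to the nuclear receptor site AGGTCA, shown as its reverse complement. In the ABCC11 window there were 1 CpG dinucleotide and no match to a motif searched. For a gene with several starts, the window shown is that with the strongest peak. Among windows under the same peak, or without a peak, it is that with the highest CpG ratio, so the 3 windows are not matched. Several ABCG2 windows lay under the same peak. Others among them held GC boxes (GGGCGG), an E-box (CACGTG) or the antioxidant response element (TGACNNNGC). The ABCB1 window lies at the start 112.4 kb inside the gene, and the window at its 5′ end had an observed to expected CpG ratio of 0.102 and no peak. ABCC11 also had a CpG-rich window, with a ratio of 0.810, under a weaker peak of 43.5 and 48.4.

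**Figure D2:**
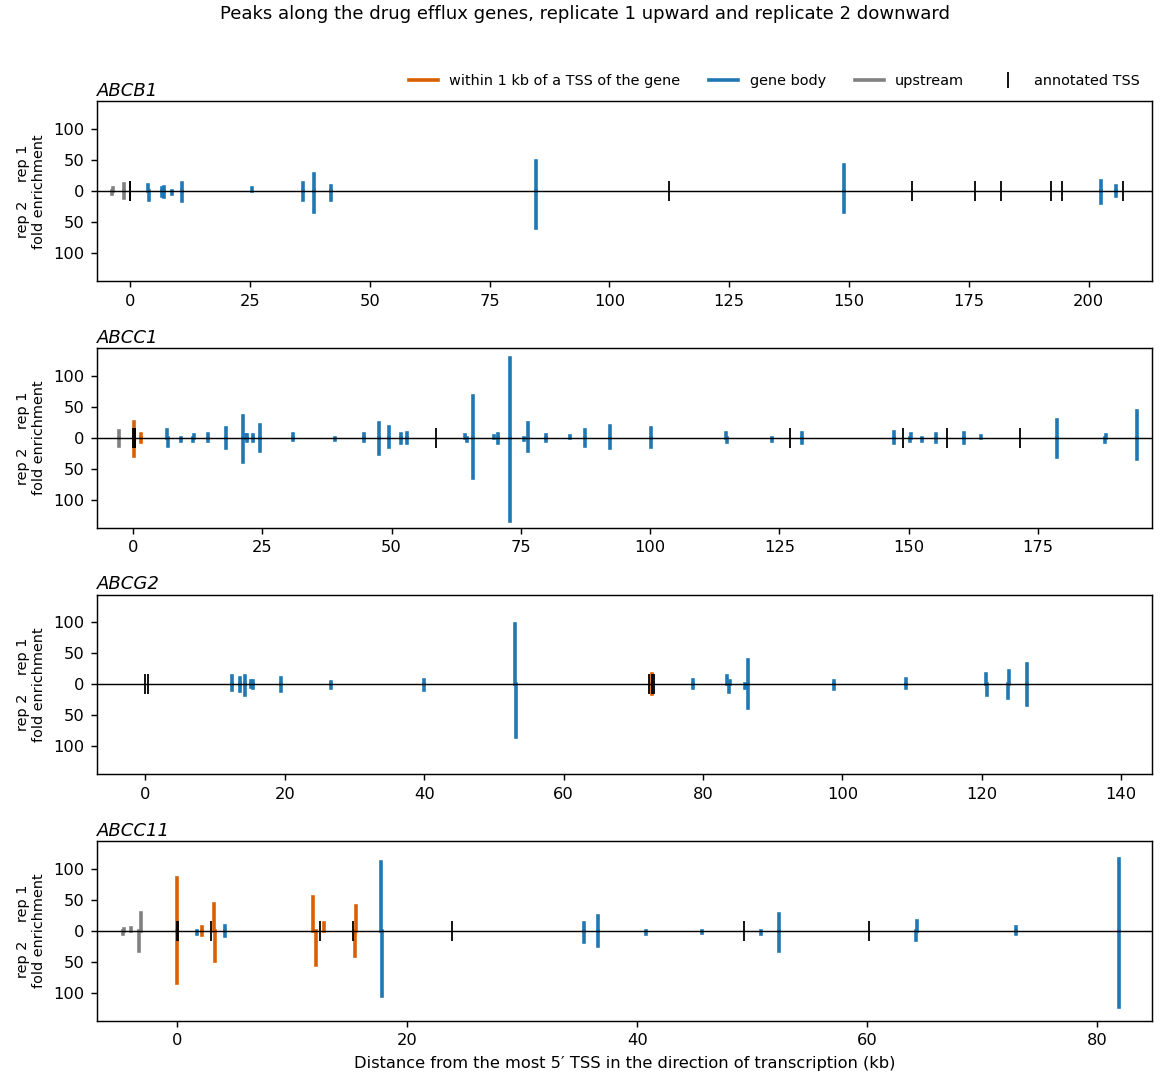
Peaks along ABCB1, ABCC1, ABCG2 and ABCC11 by distance in kb from the most 5′ TSS, with fold enrichment drawn upward for replicate 1 and downward for replicate 2. Orange bars lie within 1 kb of a TSS of the gene, blue bars in the gene body and grey bars upstream, black ticks are annotated TSSs, and in ABCC1 and ABCG2 the tallest bars are gene-body peaks of 128.4 and 97.8 in replicate 1.

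Away from their starts, all 4 drug efflux genes held further accessible regions. A gene-body region here is a stretch over 1 kb from every TSS of the gene where peaks of both replicates overlapped. ABCC1 held 31 regions, ABCG2 17, ABCB1 11 and ABCC11 8, which is 10.7 per 100 kb over the 4 genes. Over all genes, 71.1% held such a region and the density was 7.58 per 100 kb.

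The strongest region of ABCC1, in an intron at chr16:16021517-16022594, reached 128.4-fold in replicate 1 and 134.7-fold in replicate 2. It lay 72.9 kb from the most 5′ TSS and was well above the TSS peak of 25.8 and 29.0. The strongest region of ABCG2, in an intron at chr4:88177764-88179416, reached 97.8 and 84.9, against 17.3 and 15.5 at its TSS. It lay 53.0 kb inside the gene and 19.3 kb from the nearest TSS of ABCG2.

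In ABCC11 the strongest region reached 116.2 and 122.5 and reached past the 3′ end of the gene, within 1 kb of the TSS of the noncoding gene ENSG00000261538. A further intronic region at chr16:48229063-48230561 reached 110.4 and 105.0, also above the TSS peak. In ABCB1 the strongest region, at 49.5 and 58.8, lay in an intron at the start of another gene, RUNDC3B, and cannot be assigned to ABCB1 from position alone. The strongest one away from any annotated TSS, at chr7:87564269-87564640, reached 42.6 and 33.6.

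The middle 200 bases of the strongest intronic regions of ABCB1 and ABCG2 that lie away from all annotated TSSs are shown because these regions were stronger than anything at the starts of their genes. They are hg38 bases on the forward strand, chr7:87564354-87564553 and chr4:88178490-88178689. No capitals appear, since neither printed stretch held a match to the oestrogen response element, FOX, GATA, AP-1, AP-2 or grainyhead motifs. These motifs are spelled out with the gene-body results. The longer window used for the motif counts there held 1 AP-2 match in this ABCB1 region and 1 AP-1 match in this ABCG2 region. Both matches lay at least partly outside the bases printed here.
ABCB1 intron: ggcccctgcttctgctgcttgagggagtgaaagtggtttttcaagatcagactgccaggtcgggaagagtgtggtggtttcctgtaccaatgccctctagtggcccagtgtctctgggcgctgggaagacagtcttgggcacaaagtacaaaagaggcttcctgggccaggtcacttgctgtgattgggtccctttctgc
ABCG2 intron: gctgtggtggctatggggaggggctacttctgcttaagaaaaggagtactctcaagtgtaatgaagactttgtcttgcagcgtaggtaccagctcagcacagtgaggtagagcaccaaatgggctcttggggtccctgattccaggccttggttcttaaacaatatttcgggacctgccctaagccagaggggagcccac

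The other ABCC efflux pumps (ABCC2, ABCC3, ABCC4, ABCC5 and ABCC10) all had TSS peaks in both replicates, against 80.5% of all genes. ABCC5, which exports cyclic nucleotides, was the strongest at 110.7 and 114.5, and ABCC4, an exporter of cyclic nucleotides and prostaglandins, was among the weakest of all ABC genes at 12.2 and 16.4. ABCC10 reached 77.1 and 82.9. ABCC3, the basolateral pump of glucuronides in bile duct and gut epithelium, reached 63.0 and 61.5 at an internal TSS but only 7.82 and 5.09 at its most 5′ TSS. ABCC2, the canalicular pump of liver, reached 28.8 and 28.1 at an internal TSS and 23.5 and 17.2 at the most 5′ one.

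Of the 6 genes of sterol and phospholipid export, 5 had TSS peaks in both replicates (83.3%, against 80.5% of all genes), with values that ranged widely. ABCA7, a phospholipid exporter, was the second strongest ABC gene at 156.0 and 166.5. Its peak in replicate 1, but not that in replicate 2, also lay within 1 kb of a TSS of CNN2. ABCA1, which loads cholesterol onto apolipoprotein A-I, had 46.0 and 38.0, and ABCG1, which loads it onto HDL, had 30.6 and 36.9 at an internal TSS. The brain sterol exporter ABCG4 had 9.66 and 9.29. ABCG5 and ABCG8 form a single heterodimer that pumps plant sterols into bile and gut, and their genes lie head to head on chromosome 2. The RefSeq promoter windows of both genes at this divergent start had no peak in either replicate. ABCG8 had a TSS peak of 20.7 and 19.2 at another start, about 7 kb away and inside the body of ABCG5. ABCG5 had no TSS peak, and the nearest peak lay 1939 and 2101 bp away.

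Neither bile exporter of the liver had a TSS peak in both replicates. ABCB4, which moves phosphatidylcholine into bile, had one of 6.19-fold in replicate 2, with a height of 27 reads (17.8 to 39.3). ABCB11, the bile salt export pump, had one of 4.42-fold in replicate 2, with a height of 19 reads (11.4 to 29.7). Among all peaks of replicate 2 the ABCB4 peak stood at percentile 37.0 and the ABCB11 peak at percentile 14.4, and both were at start sites inside the gene.

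All 7 members of mitochondria, peroxisomes and lysosomes had TSS peaks in both replicates, as 80.5% of all genes did. The mitochondrial ABCB10 and ABCB8 were strong, at 103.1 and 105.7 for ABCB10 and at 104.9 and 98.8 for ABCB8. The peroxisomal fatty acid transporter ABCD3 had 73.6 and 75.6, and its relative ABCD2 had 9.89 and 11.9, a gap far wider than that between the replicates. ABCD4, which takes part in lysosomal cobalamin export, had 60.7 and 50.4, the lysosomal peptide transporter ABCB9 46.9 and 49.8, and the porphyrin transporter ABCB6 29.5 and 32.3. The ABCD4 peak also lay within 1 kb of a TSS of VRTN. The ABCB9 values came from different internal starts, 6967 bp from the most 5′ TSS in replicate 1 and 28565 bp in replicate 2. The replicate 1 peak of ABCB9 also lay within 1 kb of a TSS of OGFOD2, and replicate 2 had 45.8 there. At its most 5′ TSS, ABCB9 had only 12.9 and 13.9.

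The ribosomal members ABCE1, ABCF1, ABCF2 and ABCF3 all had TSS peaks in both replicates, again beside 80.5% of all genes. ABCE1, which splits ribosomes after termination, had 34.7 and 35.6, under a peak shared with ANAPC10. ABCF1 had 64.2 and 77.2, ABCF3 60.7 and 52.2, and ABCF2 137.8 and 141.5, the last also the value of ABCF2-H2BK1. These genes run from 7.92 kb (ABCF3) to 31.2 kb (ABCE1), against a median of 74.5 kb for ABC genes and 27.9 kb for all genes. ABCE1, ABCF2 and ABCF3 had no gene-body region. ABCB6 was the only other member without one.

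Genes known from single tissues were divided. Among lipid transporters, ABCA2 of myelinating cells had the strongest TSS peak of all ABC genes, 180.4 and 190.2. The strongest peak of ABCA2 lay beside internal start sites, and at the most 5′ TSS alone replicate 1 had 75.0 and replicate 2 had 190.2, since the peak of replicate 2 extended over both. ABCA3 of lung surfactant had 67.9 and 66.6, ABCA4 of the retina 62.4 and 54.0 at an internal TSS, and ABCA12 of the skin 41.9 and 48.4. ABCA13 had no TSS peak. Of the potassium channel regulators, ABCC8 (the SUR1 subunit of pancreatic beta cells) had 104.5 and 92.7 at a TSS 63.3 kb inside the gene and no peak at its 5′ end, and ABCC9 (the SUR2 subunit of muscle) had none, with the nearest peak more than 13 kb away (13345 and 13335 bp). The remaining members were ABCC12 with 31.1 and 31.4, ABCB5 with 24.4 and 22.3 at an internal TSS, and ABCC6 with 8.74 and 9.73. Reads of ABCC6 can also match its near-identical copies ABCC6P1 and ABCC6P2 on the same chromosome, so its value is uncertain.

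In the ABCA5 cluster on chromosome 17, neighbouring genes differed. Its 5 genes, ABCA5, ABCA6, ABCA8, ABCA9 and ABCA10, lie one after the other on the reverse strand from 68867289 to 69327244. ABCA5 had a TSS peak of 95.03 in replicate 1 and 99.3 in replicate 2, and the other 4 genes had none in either. Their nearest peaks lay from 2009 bp (ABCA10) to 3421 bp (ABCA8) from a TSS, with fold enrichments between 5.52 and 13.5. The cluster was also sparse within its genes, with 2.87 gene-body regions per 100 kb.

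The promoters of ABCA5 and ABCA9 are shown as the open and a closed start of this cluster, and that of ABCF2 as one of the strongest starts of the family. They come from RefSeq in the same form, on the reverse strand at chr17:69327104-69327383, chr17:69060898-69061177 and chr7:151227176-151227455.
ABCA5 promoter: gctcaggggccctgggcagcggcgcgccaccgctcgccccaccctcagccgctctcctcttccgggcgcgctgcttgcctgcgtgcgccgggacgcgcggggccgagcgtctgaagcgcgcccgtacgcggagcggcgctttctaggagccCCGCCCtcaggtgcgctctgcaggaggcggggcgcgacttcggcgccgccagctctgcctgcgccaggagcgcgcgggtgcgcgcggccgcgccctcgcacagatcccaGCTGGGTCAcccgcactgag
ABCA9 promoter: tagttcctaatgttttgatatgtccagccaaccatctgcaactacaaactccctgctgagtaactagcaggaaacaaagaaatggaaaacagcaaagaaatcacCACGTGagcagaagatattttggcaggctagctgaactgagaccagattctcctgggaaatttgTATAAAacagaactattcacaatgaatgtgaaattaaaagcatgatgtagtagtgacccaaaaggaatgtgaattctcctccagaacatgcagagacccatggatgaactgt
ABCF2 promoter: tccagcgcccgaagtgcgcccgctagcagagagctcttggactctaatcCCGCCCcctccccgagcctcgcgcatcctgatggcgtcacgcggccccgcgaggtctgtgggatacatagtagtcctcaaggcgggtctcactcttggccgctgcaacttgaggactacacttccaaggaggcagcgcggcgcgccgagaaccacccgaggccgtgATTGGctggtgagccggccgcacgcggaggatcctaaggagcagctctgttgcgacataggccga
ABCA5 held 43 CpG dinucleotides, 1 GC box (GGGCGG, here as its reverse complement) and 1 match to the antioxidant response element TGACNNNGC. ABCA9 held 1 CpG dinucleotide, 1 TATA box (TATAAA) and 1 E-box (CACGTG). ABCF2 held 28 CpG dinucleotides, 1 GC box and 1 CCAAT box. A match gives letters in a window and does not show that a factor binds there.

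RefSeq promoters of 300 bases, from 250 before to 50 after the start, matched 36 of the 44 ABC genes and gave 54 windows, because some genes have several annotated starts, whose windows can overlap. ABCA4, ABCA8, ABCB4, ABCB5, ABCC1, ABCC3, ABCC8 and ABCG1 had no entry. A peak of each replicate lay over 36 of the 54 windows (66.7%), against 67.0% of 20584 windows of autosomal protein-coding genes.

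Most windows under a peak were rich in CpG dinucleotides, among ABC genes as among all genes. With an observed to expected CpG ratio of at least 0.6, 28 of 32 ABC windows (87.5%) lay under a peak, against 85.6% of all windows of that kind. With a ratio under 0.6, 8 of 22 (36.4%) did, against 34.9% of all. Windows with a ratio of at least 0.6 and no peak belonged to ABCB1, ABCC9, ABCA10 and ABCG4. That of ABCA10 had a ratio of 0.646 but only 25% G and C bases, so it was not rich in CpG dinucleotides. Windows with a ratio under 0.6 and a peak belonged to ABCA2, ABCA12, ABCB8, ABCB9, ABCC2, ABCC11 and ABCD2, and 2 of them were at different starts of ABCC11. Those of ABCA2, ABCB8 and ABCB9 were close to the limit, with ratios of 0.519, 0.538 and 0.579. They held 64.3%, 61% and 75.3% G and C bases, so they were not clearly poor in CpG dinucleotides.

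**Figure D3:**
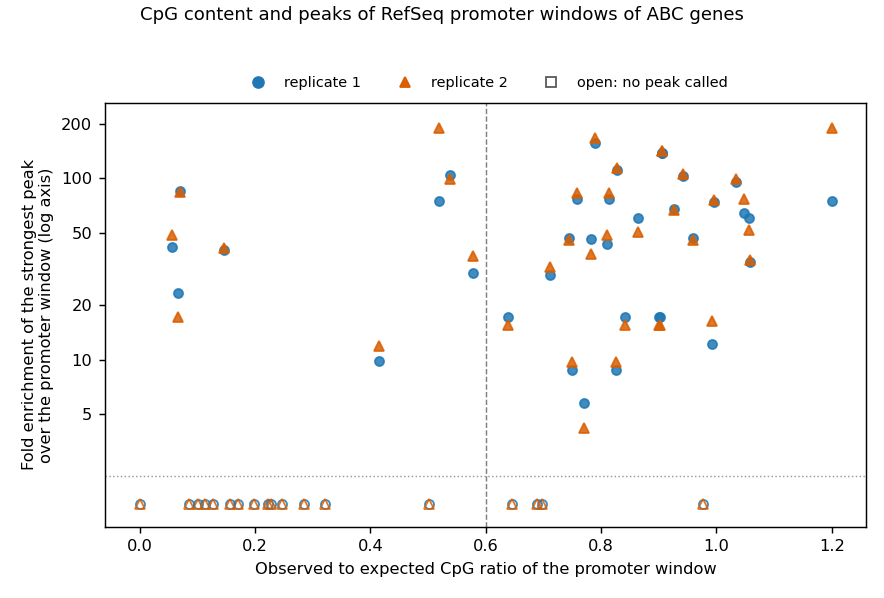
Fold enrichment (log axis) of the strongest peak over each RefSeq promoter window of the ABC genes against its observed to expected CpG ratio, with circles for replicate 1, triangles for replicate 2 and open symbols for no called peak. To the right of the dashed line at 0.6, 28 of 32 windows lay under a peak in both replicates, and to the left 8 of 22 did.

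Motifs were searched on both strands of the 54 windows. The GC box was in 24 of the 36 windows under a peak (66.7%) and in 2 of the 18 without, against 70.0% of all windows under a peak. The antioxidant response element was in 11 of the 36 (30.6%), against 14.6% of all windows under a peak, and the E-box in 7 (19.4%), against 9.73%. Over all 54 windows, the CCAAT box was in 24.1% against 34.5% of the 20584, the TATA box in 14.8% against 9.50%, AP-1 in 11.1% against 6.10% and the nuclear receptor site AGGTCA in 5.56% against 11.7%. The oestrogen response element, a palindrome whose arms overlap the letters of AGGTCA, was in none of the 54 and in 9 of the 20584. Under a peak, AP-1 was in 2 of the 36 windows (5.56%) against 4.72%, and the TATA box in 4 (11.1%) against 5.35%. There the CCAAT box was in 7 (19.4%) against 34.8%, and AGGTCA in 3 (8.33%) against 10.1%. These shares rest on few windows, and windows of the same gene share bases.

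Several TSS peaks were not at the 5′ end of their gene. When only the most 5′ TSS of each gene was considered, 30 of 44 ABC genes (68.2%) had a peak in both replicates, against 72.8% of all genes. The 4 genes without a 5′ peak but with an internal one were ABCB5, ABCC8, ABCG1 and ABCG2. The internal peaks lay 31.8 kb from the most 5′ TSS in ABCB5, at the TSS 19.5 kb inside ABCG1 and 63.3 kb inside ABCC8.

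Within gene bodies, 40 of 44 ABC genes (90.9%, 95% Wilson interval 78.8 to 96.4%) held an accessible region in both replicates, against 71.1% of all genes. The ABC genes are long, with a median of 74.5 kb against 27.9 kb, and a long gene can hold more regions. Per length the difference was smaller: 344 regions gave 8.62 per 100 kb, against 7.58 over all genes. By length class the ABC genes held 10.7 per 100 kb against 10.5 under 20 kb, 12.5 against 9.66 from 20 to 60 kb, 9.27 against 9.08 from 60 to 100 kb and 7.67 against 6.60 over 100 kb. Of the 344 regions, 308 had their midpoint in an intron, 30 in an exon and 6 outside the gene, and 15 lay within 1 kb of a TSS of another gene. Their median fold enrichment was 10.1, against 9.14, and 32 (9.30%) exceeded 50-fold, against 6.79% of all gene-body regions.

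Subfamilies differed in density. The ABCG genes held 13.3 regions per 100 kb, the ABCF genes 13.1, the ABCC genes 12.0, the ABCD genes 9.58, the ABCA genes 6.11 and the ABCB genes 5.73, and the single ABCE gene held none. The first values rest on few genes. ABCG1 and ABCG2 held 19 and 17 of the 44 ABCG regions, and ABCF1 and ABCF2-H2BK1 held 6 and 3 of the 9 ABCF regions. Subfamilies were not matched for gene length, with which density fell over all genes. Among ABC genes of at least 20 kb, the densest were ABCC3 with 27.8 per 100 kb (16 regions), ABCA4 with 27.3 (35 regions), ABCC5 with 23.5 (23 regions) and ABCF1 with 23.3 (6 regions). The strongest region of each reached 93.4 and 92.0 in ABCC3, 114.4 and 119.2 in ABCA4, 156.5 and 159.0 in ABCC5, and 77.3 and 73.9 in ABCF1, where its midpoint lay beyond the end of the gene. The ABCC5 region, at chr3:183986918-183987926, overlapped an exon and was the strongest gene-body region of any ABC gene.

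In some ABC genes the strongest peak lay in the gene body and not at a TSS. Of the 30 ABC genes with both kinds of peak, 14 (46.7%) had the stronger one in the gene body in both replicates, against 31.5% of 11938 genes. Both shares depend on length, and over 100 kb they were 6 of 8 ABC genes (75.0%) and 45.7% of all genes, while from 20 to 60 kb they were 2 of 7 (28.6%) and 26.3%. These counts are small, and no test was made of them.
The 14 genes included 7 of 10 ABCC genes and 4 of 4 ABCG genes, but 2 of 7 ABCA genes and none of 4 ABCB genes. ABCC1, ABCG2 and ABCC11, the 3 drug efflux genes with a TSS peak, were all among them. In ABCC12 the strongest gene-body peak was 117.6 and 122.5 against 31.1 and 31.4 at the TSS, and in ABCG1 104.2 and 106.8 against 30.6 and 36.9. In ABCC6 it was 53.8 and 52.4 against 8.74 and 9.73. As reads of ABCC6 can match its copies, this comparison and the place of ABCC6 among the 14 are uncertain. At the other end, ABCA2 had 9.66 and 12.2 in the gene body against 180.4 and 190.2 at the TSS, and ABCB10 had 7.36 and 8.18 against 103.1 and 105.7.

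**Figure D4:**
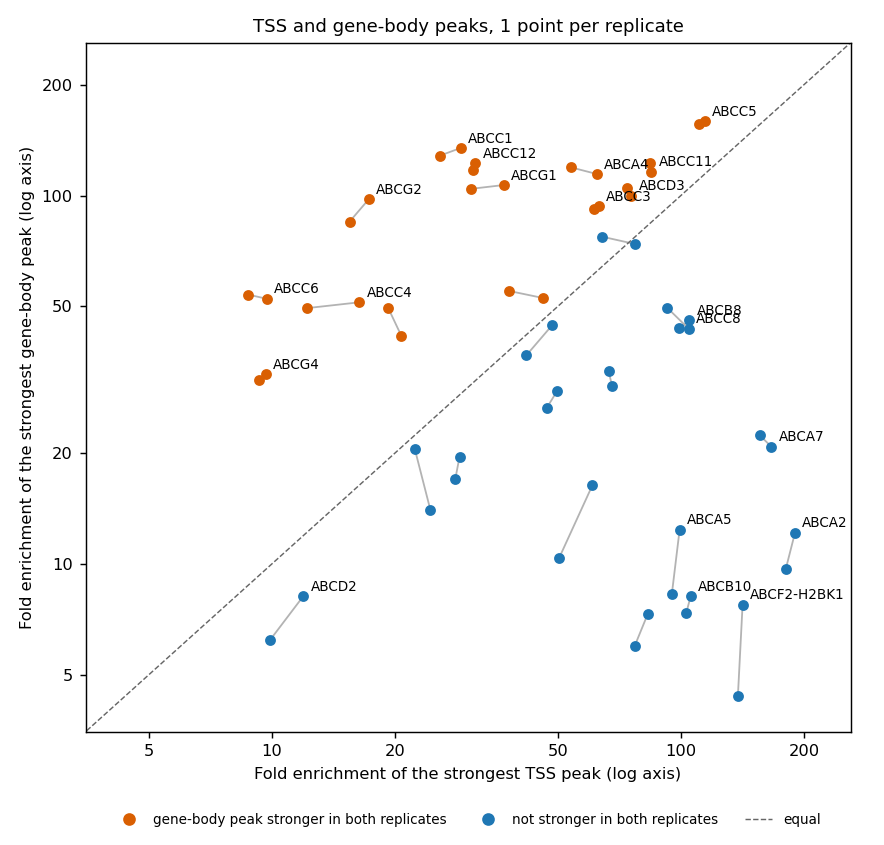
Strongest gene-body peak against strongest TSS peak (fold enrichment, both axes logarithmic) for the 30 ABC genes with both kinds, with a point per replicate joined by a line. The 14 genes in orange lie above the dashed line of equal values in both replicates, ABCC1 and ABCG2 far above it, and ABCA2, ABCA7 and ABCB10 far below it.

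Motifs in the 300 bases at the middle of each gene-body region were about as frequent in ABC genes as in all genes. AGATAA, the motif of GATA factors, was in 57 of 344 regions (16.6%) against 14.8% of 94263 distinct regions, AP-1 (TGANTCA) in 15.1% against 13.8%, AP-2 (GCCNNNGGC) in 14.5% against 14.3% and FOX (TGTTTAC) in 9.01% against 7.59%. The grainyhead motif AACCGGTT was in 1 region, against 0.163% of all. The oestrogen response element was in none, against 96 of the 94263. The lists give no summits, so the middle of a region stood in for it.

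Some ABC proteins outside the rule also had TSS peaks. TAP1 and TAP2, which carry peptides for antigen presentation, reached 86.1 and 96.0 for TAP1 and 110.9 and 111.4 for TAP2. The chloride channel CFTR reached 5.29 and 7.30. Of 8 transcription factors known to regulate ABC genes, 6 had a TSS peak in both replicates, beside 80.5% of all autosomal protein-coding genes. The 6 were NR1I3, NR1H2, NR1H3, RXRA, AHR and NFE2L2, with RXRA the strongest at 68.8 and 63.0. NR1I2, the xenobiotic receptor PXR that regulates ABCB1 in liver and gut, and NR1H4, the bile acid receptor FXR that regulates ABCB11 and ABCB4, had none.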

How the data were processed

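ATAC-seq peak lists of 2 CAMA-1 replicates were used. Per the submitters' processing notes, the authors used Trim Galore 0.6.5, Bowtie2 2.3.5.1 and MACS2 2.2.6 on hg38, and each replicate has its own list. Caller settings, duplicate handling and excluded regions are not given in the sources used here. Values deposited by the authors for each peak were a score, a fold enrichment, which is a ratio to background, and −log10 values of p and q. Fold enrichments were whole multiples of 1 step per list, and were read as (height + 1) / (background + 1), which gave heights in reads. Read depth is not in the lists, and Poisson and Wilson intervals (95%) cover counting error only. All peaks lay within the hg38 chromosomes.

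Genes and TSSs came from GENCODE release 44. The strongest TSS peak of each gene and replicate was taken. Gene-body peaks shared by the replicates (overlap of at least 1 bp) were merged into regions, and percentiles are among genes called at a TSS in both replicates. Printed promoters are, per gene, the RefSeq window with the strongest peak. Among windows under the same peak, or without a peak, the one with the highest CpG ratio was taken. Named genes are the 4 drug efflux genes, the 6 highest and 6 lowest by TSS peak, those called in 1 replicate or none, the 4 densest gene bodies and the members of each role list. Members and lists were chosen with earlier results of these data known. With a single condition, no test was run. Functions were tested on simulated data. Values were computed with numpy 2.4.6 and scipy 1.17.1 in Python 3.11.15 and plotted with matplotlib 3.10.9.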

Additional observations from a re-analysis of the deposited data

How the results depend on the processing

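Of 54 recomputed values, 50 stayed within the limits set for them and 4 moved. Outside the 54 were 9 cases without a value, all for ABCB1 or ABCG2, and the ABCB1 value within 3 kb. The 54 therefore do not score TSS peaks that vanished or appeared. With each list limited to its 50000 strongest peaks, the median TSS fold enrichment was 67.2, ABC genes with a gene-body region numbered 25, and regions per 100 kb came to 1.88, because this setting keeps fewer peaks. Within 3 kb of a TSS, ABCC11 had 107.7, since an intronic region then counted as a TSS peak, and 41 genes had a TSS peak in both replicates. ABCB1 had no TSS peak under any setting but this one, where it had 11.7. ABCG2 had no value with the 50000 strongest peaks or with the most 5′ TSS alone. Without replicate 1 or without replicate 2, genes with a TSS peak numbered 34 to 36, and their median fold enrichment was 50.1 to 60.7. Leaving out peaks shared with a neighbouring coding gene gave 30 genes with a TSS peak, and leaving out gene-body peaks at starts of other genes gave 37 genes with a gene-body region. With the read-through gene ABCF2-H2BK1 left out, an alternative chosen after seeing the data, 33 of 43 genes had a TSS peak. No paired analysis was possible because there was 1 condition. The peak threshold limits what can be said of genes without a peak.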
